A study of Mus musculus with 21 samples.

Results

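Thyroid glands of C57BL/6J mice that overexpressed thyroid-stimulating hormone (TSH) and were treated with methimazole (TSH-MMI, n = 3 libraries) were compared with glands of mice that received an empty vector (Empty, n = 3), both at 4 weeks. These 6 libraries are 3 and 3 of the 21 in the series, chosen by their labelled group, and 17355 of the 45777 genes in the deposited tables had enough reads to be tested. TSH-MMI mice were injected with 2 pLIVE plasmids, which drive expression in the liver and here carried the beta chain of TSH (TSHB) and the glycoprotein hormone alpha chain (CGA), and were given thiamazole, which is another name for methimazole. Empty mice carried the pLIVE plasmid without an insert and got no drug. The other groups of 4 weeks were TSH, with the same plasmids and no drug (n = 3), and Empty-MMI, with the empty plasmid and the drug (n = 3), so all mice in the comparison carried a plasmid. The sources used here give no dose, age or sex. The labels do not say whether the 3 libraries of a group came from separate mice, so the p-values below measure the spread between these samples.

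TSH is made by the pituitary and acts on the follicular cells of the thyroid, where its receptor raises cAMP and drives iodide uptake, thyroglobulin turnover, hormone release and growth of the gland. Methimazole is an antithyroid drug that keeps iodine from being attached to thyroglobulin and so lowers hormone synthesis. In a gland under lasting TSH stimulation, follicular cells divide and the capillary bed and stroma around the follicles enlarge.

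The 3 TSH-MMI libraries held 32244842, 33365757 and 48467129 counted reads and the 3 Empty libraries 47290037, 46901064 and 41785083. The gene of thyroglobulin (Tg), the storage protein of the follicle, took between 18.3% and 24.9% of the reads in TSH-MMI libraries and between 17.2% and 26.0% in Empty libraries. Transcripts of the mitochondrial genome took between 7.28% and 7.68% of the reads in TSH-MMI libraries, against between 8.68% and 10.4% in Empty libraries, and these ranges did not overlap. Levels below are CPM, counts scaled to a common library size with the trimmed mean of M values. A gene is called where the adjusted p (Benjamini-Hochberg over the tested genes) of edgeR's quasi-likelihood test was under 0.05, and log2 fold changes are TSH-MMI over Empty unless another pair is named.

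The Empty libraries stood apart in skeletal muscle transcripts. The summed level of 18 muscle markers lay between 12.7 and 659 CPM in TSH-MMI libraries, between 8.87 and 1855 CPM in TSH libraries, between 85.6 and 434 CPM in Empty-MMI libraries and between 4805 and 13656 CPM in Empty libraries. Acta1, the actin of skeletal muscle, stood at 0.565, 8.84 and 99.7 CPM in TSH-MMI libraries 1, 2 and 3, against 3968, 748 and 1725 CPM in Empty libraries. All 18 tested markers were lower in each TSH-MMI library than in each Empty library, and Atp2a1, Mybpc1, Neb, Pvalb and Tnnt3 had no read in TSH-MMI library 1. The markers also differed widely within the TSH-MMI group, and edgeR's quasi-likelihood test called 1 of the 18 (Myh2), while DESeq2 called 17 and limma 11. In bulk tissue, fewer cells of a type and less RNA per cell cannot be told apart. The part of the muscle transcripts in the results below was not tested beyond 2 measurements, given for the lists below: a fit with the muscle score as covariate, and the comparison with Empty-MMI libraries, whose muscle level lay within the TSH-MMI range.

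**Figure D1:**
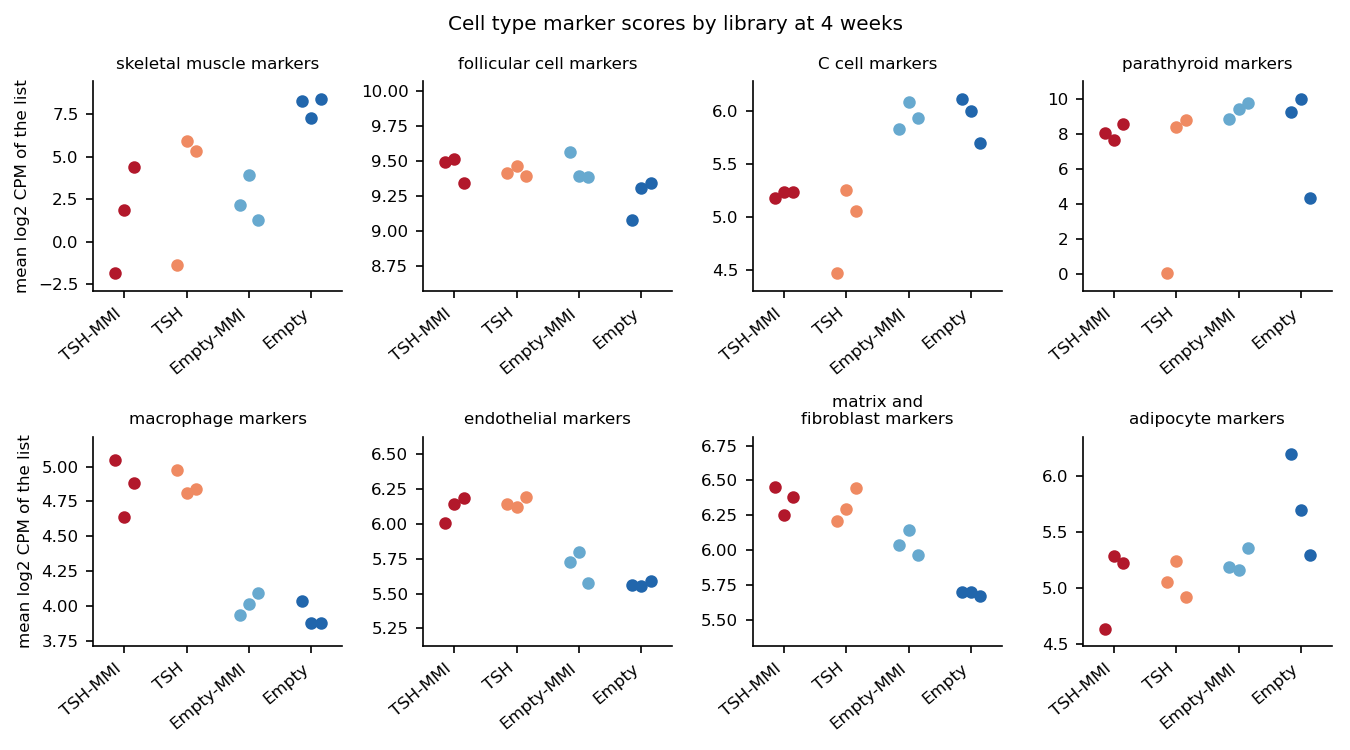
Mean log2 CPM of 8 lists of cell type markers (vertical axis) in each library of the 4 groups at 4 weeks (horizontal axis, 3 points a group), each panel with its own scale. Muscle markers are highest in the 3 Empty libraries, macrophage, endothelial and matrix markers are higher in TSH-MMI and TSH libraries than in Empty-MMI and Empty libraries, and C cell markers are lower.

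Between TSH-MMI and Empty glands, 2558 of 17355 genes were called, which is 14.7% of those tested. Of these, 1522 (8.77%) rose and 1036 (5.97%) fell, and 431 and 429 of them changed by at least 2-fold. The median log2 fold change over all tested genes was -0.03. Without TSH-MMI library 1, which had the lowest muscle level, 1415 genes were called (952 higher and 463 lower). Fitting the TSH-MMI and Empty libraries alone gave 1165 higher and 598 lower genes. With the muscle score as a covariate 378 genes (2.18%) were called, 292 higher (1.68%) and 86 lower (0.496%), while all 1522 genes that had risen and 1012 of the 1036 that had fallen kept their direction. Against Empty-MMI glands, 736 genes (4.24%) were called, 526 higher (3.03%) and 210 lower (1.21%), a count that fell to 255 without TSH-MMI library 1, to 347 without Empty-MMI library 1 and to 307 without Empty-MMI library 2. Empty-MMI over Empty had 285 called genes (1.64%), 99 higher (0.57%) and 186 lower (1.07%). In all, 2725 genes (15.7%) were higher and 2636 (15.2%) lower in each TSH-MMI library than in each Empty library, and 1312 (7.56%) and 1000 (5.76%) also lay beyond each Empty-MMI library.

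**Figure D2:**
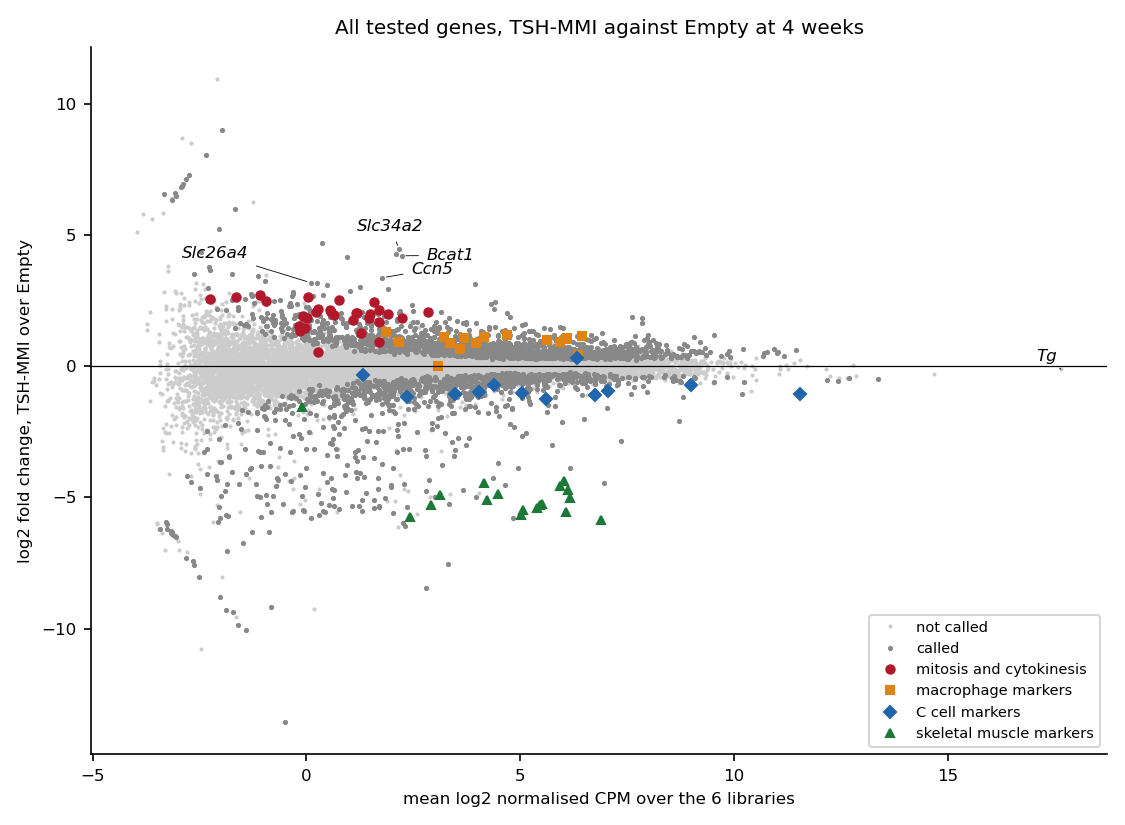
Log2 fold change of TSH-MMI over Empty at 4 weeks (vertical axis) against the mean log2 CPM over the 6 libraries (horizontal axis) for the 17355 tested genes. Dark grey points are the 2558 called genes and coloured symbols mark 4 lists: mitosis genes and macrophage markers lie above 0, the lowest (Mertk) at 0.01, most C cell markers lie near -1, and 17 of the 18 skeletal muscle markers lie below -4.

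The 8 largest increases among called genes with a mean of at least 5 CPM and no overlap between the groups were those of Slc34a2, Car15, Bcat1, Ccn5, Upk3bl, Sphk1, Tgm1 and Gdf15. Slc34a2, a sodium-phosphate cotransporter of epithelial membranes (chr5:53049353-53071664, GRCm38.p6), stood at 27.5, 15.9 and 21.7 CPM in TSH-MMI glands, against 1.48, 0.492 and 0.994 CPM in Empty glands. Its level rose 21.9-fold (log2 fold change 4.45 ± 0.43 SE, edgeR adjusted p = 0.000152), with every TSH-MMI library above every Empty library, as the choice of these 8 required. TSH glands (15.1, 20.2 and 17.8 CPM) lay within the TSH-MMI range or close below it, Empty-MMI glands had 2.66, 1.45 and 3.83 CPM, and Slc34a2 also rose against Empty-MMI (log2 fold change 3.04, adjusted p = 0.00274).

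Ccn5, a secreted matricellular protein of the CCN family, had 13.9, 10.7 and 8.16 CPM in TSH-MMI glands and 1.14, 0.861 and 1.17 CPM in Empty glands, a log2 fold change of 3.37 ± 0.26 SE (edgeR adjusted p = 1.4e-05). Bcat1, the cytosolic aminotransferase of branched-chain amino acids, had 26.4, 18.2 and 16.2 CPM in TSH-MMI glands and 0.853, 0.881 and 1.59 CPM in Empty glands, a log2 fold change of 4.21 ± 0.42 SE. The lack of overlap with Empty was fixed by the choice of these genes. Both also rose against Empty-MMI, by 2.58 for Ccn5 and by 2.33 for Bcat1 on the log2 scale.

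Gdf15, a stress-induced cytokine of the TGF-beta superfamily, stood at 58.4, 46.5 and 34.1 CPM in TSH-MMI glands, at 11.5, 9.35 and 19.7 CPM in Empty-MMI glands and at 9.77, 9.55 and 7.35 CPM in Empty glands. It rose by 2.38 ± 0.29 SE over Empty (edgeR adjusted p = 0.00057) and by 1.78 over Empty-MMI (adjusted p = 0.00754). Sphk1, the kinase that makes sphingosine-1-phosphate, rose by 2.96 ± 0.29 SE over Empty and by 2.04 over Empty-MMI. Upk3bl, a relative of the urothelial uroplakins, rose by 3.12 ± 0.43 SE over Empty, and its 1.52 over Empty-MMI was not called (adjusted p = 0.0746).

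Car15, a membrane-bound carbonic anhydrase, had 31.4, 9.4 and 17.8 CPM in TSH-MMI glands, against 0.792, 1 and 1.22 CPM in Empty glands (log2 fold change 4.28 ± 0.82 SE, edgeR adjusted p = 0.00939). Tgm1, a transglutaminase of cornified epithelia, had 58.8, 67.7 and 31.2 CPM in TSH-MMI glands, against 6.8, 8.03 and 14.1 CPM in Empty glands (log2 fold change 2.45 ± 0.42 SE, adjusted p = 0.00479). These 2 of the 8 were no longer called with the muscle covariate, and neither passed the threshold against Empty-MMI (adjusted p = 0.0544 for Car15 and 0.148 for Tgm1).

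**Figure D3:**
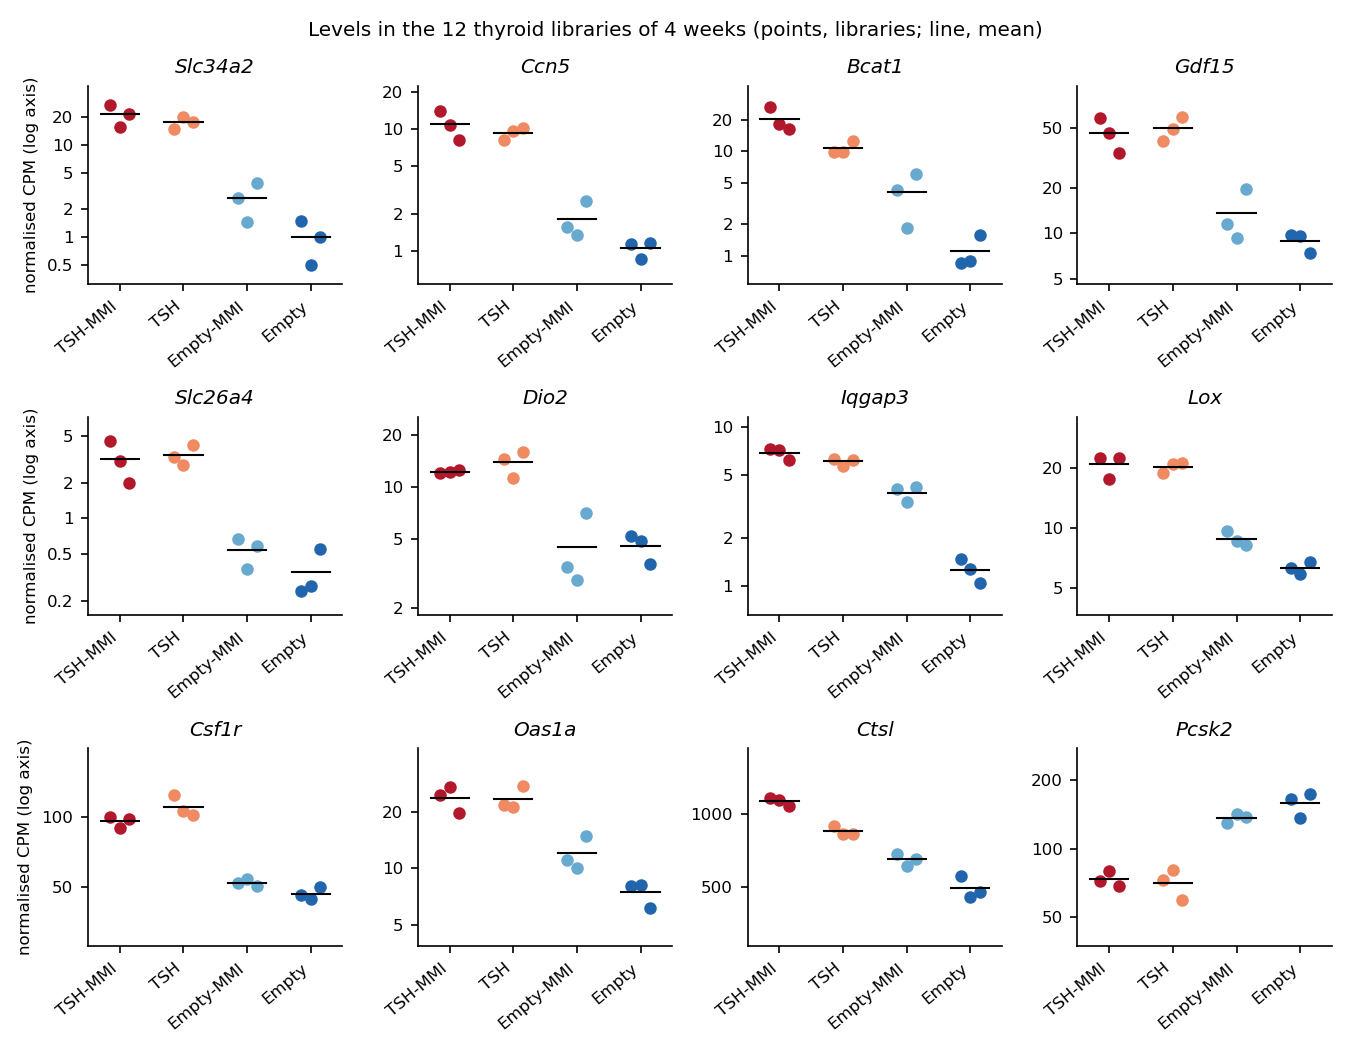
Normalised CPM on a log axis (vertical) of 12 genes in each library of the 4 groups at 4 weeks (horizontal), with points for libraries and a line at the mean of 3. In all 12 panels the TSH-MMI points do not overlap the Empty points: 11 genes are higher in TSH-MMI and Pcsk2 is lower.

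Genes of thyroid hormone synthesis rose in part. Of 18 tested members of a list of 20, 10 were called higher and none lower, against 8.77% of all tested genes called higher, and the list's median log2 fold change was 0.46. Slc26a4, the pendrin gene, whose product passes iodide to the follicle lumen, changed most: 4.49, 3.06 and 1.97 CPM in TSH-MMI glands, against 0.244, 0.266 and 0.546 CPM in Empty glands. It rose 9.06-fold (log2 fold change 3.18 ± 0.38 SE, edgeR adjusted p = 0.000167), the groups did not overlap, and the rise over Empty-MMI was 2.55 (adjusted p = 0.0021).

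Dio2, the deiodinase that activates thyroxine, had 12.1, 12.2 and 12.7 CPM in TSH-MMI glands, 3.47, 2.92 and 7.09 CPM in Empty-MMI glands and 5.22, 4.92 and 3.6 CPM in Empty glands. It rose by 1.43 ± 0.27 SE over Empty (edgeR adjusted p = 0.00396) and by 1.46 over Empty-MMI (adjusted p = 0.0109). The 3 TSH-MMI values lay above all 6 of these others, and TSH glands had 14.6, 11.4 and 15.95 CPM. Ano1, a calcium-activated chloride channel that also passes iodide, rose by 0.58 ± 0.11 SE over Empty and by 0.59 over Empty-MMI. Against Empty-MMI, the calls of Dio2 and Ano1 were lost without Empty-MMI library 1.

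Smaller increases over Empty were called for Slc26a7, an anion exchanger of the follicular cell (0.53), for the deiodinase Dio1 (0.42), for the iodotyrosine deiodinase Iyd (0.36) and for the potassium channel gene Kcnq1 (0.50), all as log2 fold changes. Duox1, a peroxide-generating oxidase, rose by 1.34 ± 0.31 SE and its maturation factor Duoxa1 by 0.86 ± 0.26 SE, but these genes overlap on chromosome 2, so their reads may be shared. None of these 6 was called against Empty-MMI, where their log2 fold changes ran from 0.03 for Duoxa1 to 0.33 for Kcnq1. Without TSH-MMI library 1 the list had 4 higher members and without TSH-MMI library 2 it had 5. Lower members appeared without Empty library 1 (7 higher and 2 lower) and without TSH-MMI library 3 (10 higher and 1 lower). With the muscle covariate only Slc26a4 kept its call, at a list median of 0.38.

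The genes at the head of the pathway did not pass the test. The TSH receptor gene, Tshr, had 129, 102 and 124 CPM in TSH-MMI glands, against 60.5, 87.2 and 94.3 CPM in Empty glands, without overlap (log2 fold change 0.56 ± 0.19 SE, edgeR adjusted p = 0.0686). In the fit of all 21 libraries its adjusted p at 4 weeks was 0.0273. Slc5a5, the sodium-iodide symporter of the basal membrane, stood at 228, 235 and 134 CPM in TSH-MMI glands and at 146, 302 and 165 CPM in Empty glands, with overlapping ranges (log2 fold change -0.03 ± 0.31 SE, adjusted p = 0.961). Tg had a log2 fold change of -0.12 ± 0.18 SE (adjusted p = 0.729), again with overlap. The other uncalled members lay between -0.39 for Duoxa2 and -0.05 for Slc5a8. The sign of the Slc5a5 and Tg values turned in some of the alternatives.

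Of 7 tested thyroid transcription factors, 1 was called: Foxp2, a forkhead factor, fell by 0.75 on the log2 scale (SE 0.16, edgeR adjusted p = 0.0059), with 4.12, 3.97 and 3.62 CPM in TSH-MMI glands and 6.62, 7.13 and 5.94 CPM in Empty glands. This call was lost in limma and with the muscle covariate. The 6 others, among them Foxe1, Glis3 and Creb3l1, lay between -0.23 and 0.28. Without Empty library 1, 2 of the 7 were called lower. Against Empty-MMI none of the 7 was called, with Foxp2 at -0.59 (edgeR adjusted p = 0.05145). Over Empty, 5.97% of all tested genes were called lower.

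Of 13 tested genes that respond to thyroid hormone in various tissues, 5 rose and 1 fell, against 8.77% and 5.97% of all tested genes, at a median of 0.29. Dio3, the deiodinase that inactivates thyroid hormone, was low throughout, at 1.1, 0.538 and 0.733 CPM in TSH-MMI glands, against 0.0406, 0.0615 and 0.0994 CPM in Empty glands. It rose by 3.53 ± 0.52 SE (edgeR adjusted p = 0.000672), and its 1.56 over Empty-MMI was not called (adjusted p = 0.0682). Hr, a corepressor of the thyroid hormone receptor, rose by 0.69 over Empty and by 0.67 over Empty-MMI. Ucp2, a mitochondrial carrier, rose by 0.78 over Empty. Thra, the receptor gene itself, fell by 0.41, and its 3′ end overlaps Nr1d1 on the opposite strand, so reads of the pair may not be separated. The list had 3 higher members without TSH-MMI library 1 and also without TSH-MMI library 2. 2 were called with the muscle covariate (Dio3 and Hr).

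**Figure D4:**
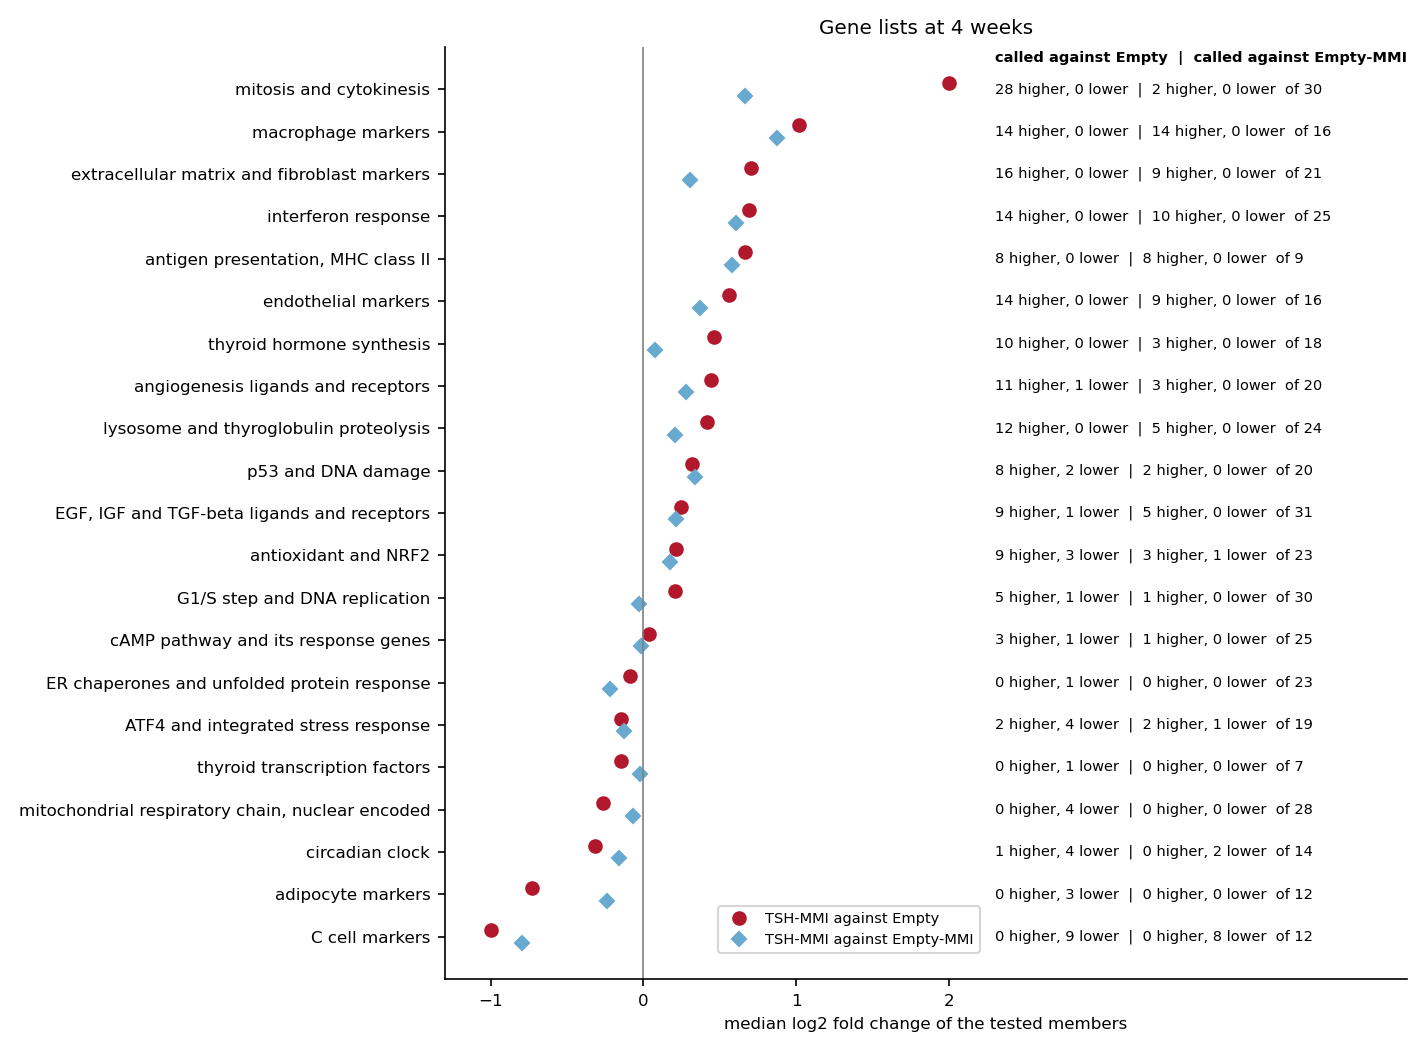
Median log2 fold change (horizontal axis) of the tested members of 21 gene lists (vertical axis) for TSH-MMI against Empty (circles) and against Empty-MMI (diamonds), with the number of called members at the right. Mitosis genes have the highest median against Empty, 2.0, with a median of 0.67 against Empty-MMI, while macrophage markers have 1.02 and 0.88.

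Genes of mitosis and cytokinesis rose almost as a whole. Of 30 tested members, 28 were called higher and none lower, against 8.77% and 5.97% of all tested genes. The median log2 fold change was 2.0 against -0.03 over all genes, and all 30 values were above 0. Iqgap3, a scaffold protein linked to proliferation, stood at 7.23, 7.2 and 6.17 CPM in TSH-MMI glands, at 4.06, 3.35 and 4.17 CPM in Empty-MMI glands and at 1.46, 1.27 and 1.04 CPM in Empty glands. It rose by 2.44 ± 0.17 SE over Empty (edgeR adjusted p = 1.12e-05) and by 0.83 over Empty-MMI (adjusted p = 0.0089), a call that was lost without Empty-MMI library 2.

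Mki67, the source of the Ki-67 proliferation antigen, had 16.6, 10.7 and 17.6 CPM in TSH-MMI glands, 9.68, 8.73 and 13.1 CPM in Empty-MMI glands and 2.6, 4.06 and 4.05 CPM in Empty glands. TSH-MMI and Empty did not overlap (log2 fold change 2.07 ± 0.23 SE, edgeR adjusted p = 9.68e-05), whereas TSH-MMI and Empty-MMI did (0.51, adjusted p = 0.224). Prc1 and Kif20a, both needed for the central spindle, each rose by 2.16 over Empty. The uncalled members were Ttk, at 2.55 ± 0.90 SE, and Aurka, at 0.54 ± 0.23 SE.

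Against Empty-MMI, 2 of the 30 mitosis genes (Iqgap3 and Kif4) were called, at a list median of 0.67, and Empty-MMI over Empty had 13 called higher at a median of 1.20. The shares of all tested genes called higher were 3.03% and 0.57%. These comparisons share their Empty or Empty-MMI libraries, so the 3 medians are not independent. With the muscle covariate 15 of 30 were called against Empty at a median of 1.93.

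Fewer genes of DNA replication and the G1/S transition were called. Of 30 tested, 5 rose and 1 fell, against 8.77% and 5.97% of all tested genes, at a median of 0.21. Ccnd1, cyclin D1, had 236, 175 and 158 CPM in TSH-MMI glands and 76.6, 78.4 and 79.1 CPM in Empty glands, without overlap (log2 fold change 1.28 ± 0.16 SE, edgeR adjusted p = 0.000186). Rrm2, a subunit of ribonucleotide reductase, rose by 1.49 ± 0.28 SE, E2f2 by 0.82 and the helicase subunit gene Mcm3 by 0.44. Against Empty-MMI 1 of the 30 was called, higher, close to the 3.03% of all tested genes, at a median of -0.03. The list had 3 higher members without Empty library 2 or Empty library 3, and 2 without TSH-MMI library 1. Ccnd1 was the 1 member called with the muscle covariate.

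The promoters of 2 mitosis genes are shown because the list moved together. Many late cell cycle genes carry a CHR element (TTTGAA, or TTCAAA on the other strand) and CCAAT boxes (CCAAT, or ATTGG on the other strand) close to the start, and both were searched on both strands in the 250 bases before the start (RefSeq, GRCm38.p6, printed 5′ to 3′ along the gene with matches in capitals). Top2a, encoding topoisomerase II alpha, lies at chr11:99024190-99024439 on the minus strand and Kif11, encoding a spindle kinesin, at chr19:37376132-37376381 on the plus strand.
Top2a: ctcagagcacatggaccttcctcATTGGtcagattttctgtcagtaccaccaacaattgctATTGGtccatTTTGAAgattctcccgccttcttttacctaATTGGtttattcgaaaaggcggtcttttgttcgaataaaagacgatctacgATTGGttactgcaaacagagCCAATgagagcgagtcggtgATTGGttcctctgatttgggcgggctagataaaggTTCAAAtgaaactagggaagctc
Kif11: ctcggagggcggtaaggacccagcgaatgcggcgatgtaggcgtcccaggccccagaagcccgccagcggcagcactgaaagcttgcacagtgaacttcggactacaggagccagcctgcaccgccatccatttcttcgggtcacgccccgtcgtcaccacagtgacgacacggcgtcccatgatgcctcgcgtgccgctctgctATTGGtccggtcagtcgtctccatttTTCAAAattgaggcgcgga
The Top2a window held 2 CHR and 6 CCAAT matches and the Kif11 window 1 of each. Both genes were taken from called members with a small p, and only windows that held a CHR match were printed. Their CHR matches were therefore fixed by the choice. A printed window could reach a short way into the annotated gene. A CHR match was found in 10 of the 26 mitosis genes with a promoter sequence (38.5%), against 1727 of 12849 genes in all (13.4%), and a CCAAT match in 19 of 26 (73.1%), against 5099 of 12849 (39.7%). Top2a rose by 1.82 ± 0.22 SE and Kif11 by 2.07 ± 0.29 SE over Empty.

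Matrix and fibroblast genes rose. Of 21 tested, 16 were called higher and none lower, at a median log2 fold change of 0.70. Of all tested genes, 8.77% were called higher over Empty, 3.03% over Empty-MMI and 1.68% with the muscle covariate. The shares called lower were 5.97%, 1.21% and 0.496% in the same order, and these shares also serve for the lists that follow. Lox, which cross-links collagen and elastin, stood at 22.5, 17.7 and 22.6 CPM in TSH-MMI glands, at 9.73, 8.67 and 8.26 CPM in Empty-MMI glands and at 6.36, 5.88 and 6.81 CPM in Empty glands. Its groups were fully separate (log2 fold change 1.72 ± 0.12 SE over Empty, edgeR adjusted p = 1.12e-05, and 1.24 over Empty-MMI, adjusted p = 0.000244).

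Fbn1, the microfibril protein fibrillin, rose by 1.34 over Empty, the fibrillar collagen gene Col3a1 by 1.20 and Col1a1 and elastin (Eln) by 0.89 each. Against Empty-MMI they rose by 0.74, 0.77, 0.40 and 0.59 in the same order. In all, 9 of the 21 were called against Empty-MMI, at a median of 0.31, and Empty-MMI over Empty had 6. 9 were called with the muscle covariate, at a median of 0.75. The summed level of the list was between 2858 and 3290 CPM in TSH-MMI glands and between 2070 and 2137 CPM in Empty glands.

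Endothelial markers rose too. Of 16 tested, 14 were called higher and none lower, at a median of 0.56, against 8.77% and 5.97% of all tested genes. Eng, endoglin, had 175, 180 and 155 CPM in TSH-MMI glands and 89.7, 88.3 and 90.2 CPM in Empty glands (log2 fold change 0.92 ± 0.09 SE, edgeR adjusted p = 3.58e-05). Plvap, a protein of fenestrated capillary endothelium, rose by 0.86 and Emcn, endomucin, by 0.62. All 3 also rose against Empty-MMI, where 9 of the 16 were called. 7 of 16 were called with the muscle covariate, at a median of 0.67.

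Among 20 ligands and receptors of angiogenesis, 11 rose and 1 fell, at a median of 0.44, against 8.77% and 5.97% of all tested genes. Esm1, a secreted proteoglycan of endothelial tip cells, had 102, 105 and 106 CPM in TSH-MMI glands, 66.8, 69.3 and 74.5 CPM in Empty-MMI glands and 57.6, 52.6 and 55.5 CPM in Empty glands. It rose by 0.92 ± 0.08 SE over Empty and by 0.57 over Empty-MMI, with no overlap. The VEGF receptor genes Flt1 and Flt4 rose by 0.72 and 0.71 over Empty, and their 0.26 and 0.34 over Empty-MMI were not called. Flt1, Kdr, Tek and Tie1 are in the endothelial list as well, so the counts of these lists are not independent. Without Empty library 2 the list had 7 higher members and none lower, and with the muscle covariate it had 5.

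Macrophage markers rose against both control groups. Of 16 tested, 14 were called higher over Empty, at a median of 1.02, and 14 were called higher over Empty-MMI, at a median of 0.88. The shares of all tested genes called higher were 8.77% and 3.03%. Csf1r, the receptor that macrophages need to survive, stood at 100, 89.8 and 97.9 CPM in TSH-MMI glands, at 52.1, 54.1 and 50.1 CPM in Empty-MMI glands and at 45.9, 44.2 and 50 CPM in Empty glands. TSH-MMI was apart from both (log2 fold change 1.04 ± 0.09 SE over Empty, edgeR adjusted p = 3.05e-05).

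Cx3cr1, the fractalkine receptor, rose by 1.20 over Empty, the Fc receptor gene Fcgr3 by 1.09 and C1qa, a chain of complement C1q, by 1.09. Against Empty-MMI they rose by 0.87, 1.16 and 0.89 in the same order. Empty-MMI over Empty had no marker called by edgeR (1 at an unadjusted p under 0.05), at a median of 0.12. With the muscle covariate 9 of 16 were called, at a median of 0.81. The uncalled markers were Lyz2, at 0.43 ± 0.35 SE, and Mertk, at 0.01 ± 0.17 SE.

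Of 9 genes of antigen presentation by MHC class II, 8 rose over Empty and the same number over Empty-MMI, at medians of 0.66 and 0.58. The class II chain H2-Aa had 303, 320 and 323 CPM in TSH-MMI glands and 232, 170 and 187 CPM in Empty glands, without overlap (log2 fold change 0.68 ± 0.11 SE, edgeR adjusted p = 0.00122). H2-Eb1 rose by 0.69 and H2-DMb1, part of the peptide loading complex, by 0.58. 1 of the 9 was called with the muscle covariate (Ctss, cathepsin S, which the macrophage and lysosome lists also hold), at a median of 0.59. Of 13 tested lymphocyte markers 10 had a log2 fold change above 0, at a median of 0.17, with uncalled values from -0.28 to 1.71. None was called higher and 1 was called lower, against 8.77% and 5.97% of all tested genes. It was the B cell receptor chain Cd79b, at -0.60. That call was lost without TSH-MMI library 3, Empty library 1 or Empty library 3, and with the muscle covariate. Without Empty library 1, 1 marker was called higher. None was called against Empty-MMI, at a median of 0.48.

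Interferon response genes rose as well. Of 25 tested, 14 were called higher and none lower over Empty, at a median of 0.69. Over Empty-MMI 10 were called higher, at a median of 0.61. The shares of all tested genes called higher were 8.77% and 3.03%. Empty-MMI over Empty had none called by edgeR (4 at an unadjusted p under 0.05), at a median of 0.01. Oas1a, a sensor of double-stranded RNA, had 24.8, 27.2 and 19.9 CPM in TSH-MMI glands, 11.1, 10.1 and 15 CPM in Empty-MMI glands and 8.02, 8.2 and 6.13 CPM in Empty glands. The TSH-MMI libraries were the highest of these 9 (log2 fold change 1.68 ± 0.18 SE over Empty, edgeR adjusted p = 7.93e-05, and 0.99 over Empty-MMI, adjusted p = 0.0061). TSH glands had 21.8, 21.4 and 27.6 CPM, and TSH over Empty had 19 of the 25 list members called higher, at a median of 0.90.

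Gbp3, a guanylate-binding protein, rose by 1.00 over Empty and by 0.97 over Empty-MMI, Oasl2 by 0.96 and 0.92, and Ifi44 by 0.97 and 1.14. Gene copies of the Oas1 and Gbp families are alike, so their reads may be shared. 5 of 25 were called with the muscle covariate, among them these 4, at a median of 0.75.

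**Figure D5:**
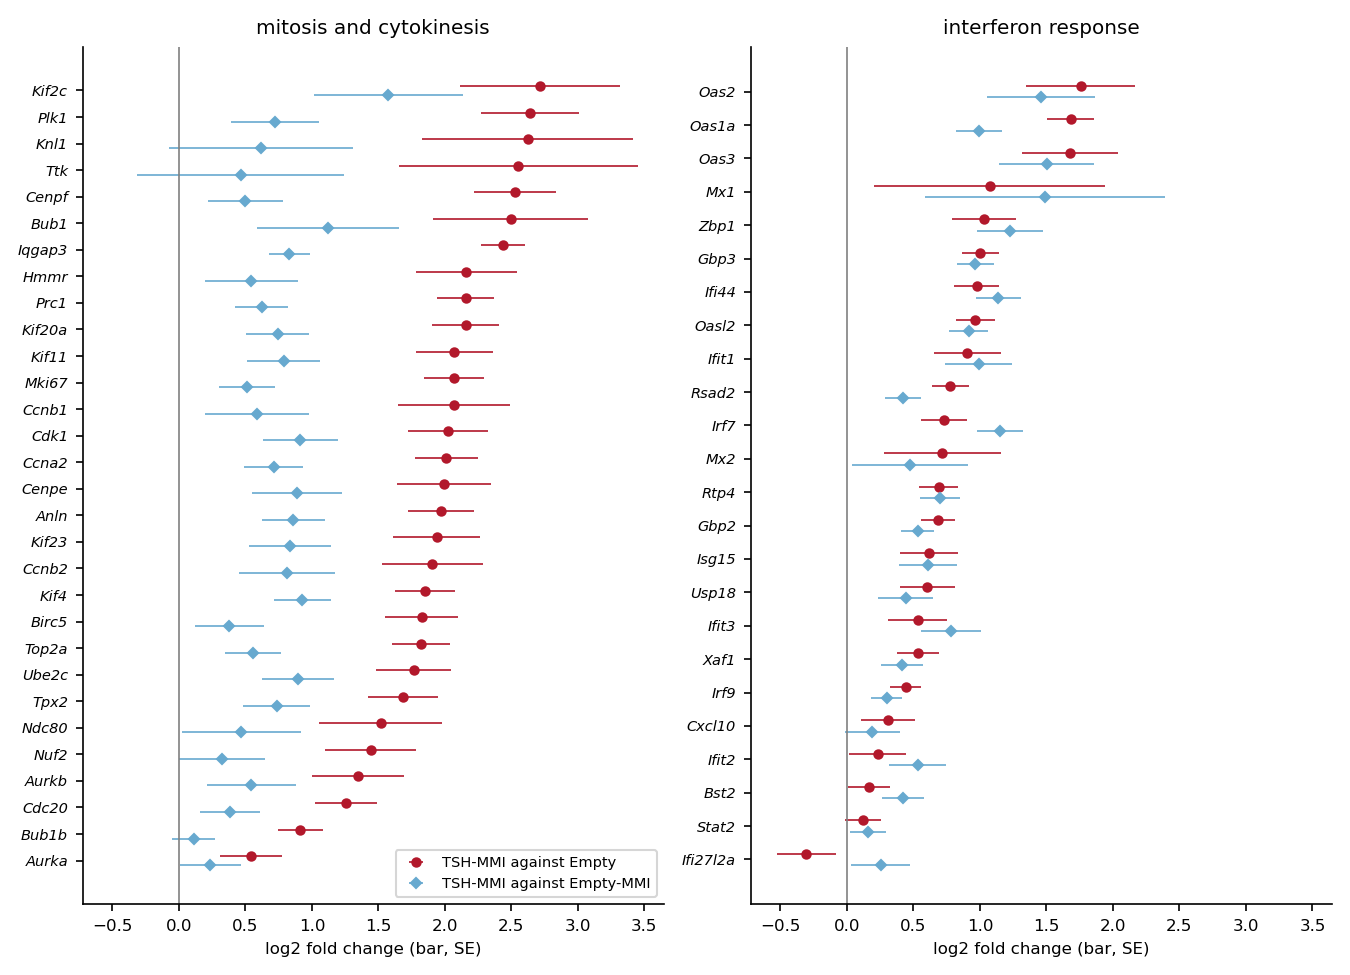
Log2 fold change with its SE (horizontal axis) of tested members (vertical axis) of the mitosis list (left, 30 genes) and the interferon list (right, 24 of its 25 genes), for TSH-MMI against Empty (circles) and against Empty-MMI (diamonds). All 30 mitosis genes lie further from 0 against Empty than against Empty-MMI, and the whole interferon list has medians of 0.69 against Empty and 0.61 against Empty-MMI.

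The promoters of 3 interferon response genes are shown for the element that the interferon-activated factor complex binds, the ISRE, searched as GAAA, any 2 bases and GAAA (on the other strand TTTC, any 2 bases and TTTC). The sequences are the 250 bases before the start used for the search (RefSeq, GRCm38.p6, printed 5′ to 3′ along the gene with matches in capitals). That start lay inside the annotated gene for Oas1a (chr5:120896256-120907544) and Gbp3 (chr3:142560016-142573213). The last bases of both windows are therefore part of the gene. In Oas1a these bases hold nearly all of the matched stretch, and in Gbp3 the matches lie before them. Oas1a lies at chr5:120907526-120907775 on the minus strand, Gbp3 at chr3:142559794-142560043 on the plus strand and Cxcl10, a chemokine, at chr5:92348890-92349139 on the minus strand.
Oas1a: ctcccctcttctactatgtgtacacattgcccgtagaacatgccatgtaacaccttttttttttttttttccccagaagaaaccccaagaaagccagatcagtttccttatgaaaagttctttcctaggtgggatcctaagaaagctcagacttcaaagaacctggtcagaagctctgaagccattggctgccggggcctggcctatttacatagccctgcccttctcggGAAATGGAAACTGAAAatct
Gbp3: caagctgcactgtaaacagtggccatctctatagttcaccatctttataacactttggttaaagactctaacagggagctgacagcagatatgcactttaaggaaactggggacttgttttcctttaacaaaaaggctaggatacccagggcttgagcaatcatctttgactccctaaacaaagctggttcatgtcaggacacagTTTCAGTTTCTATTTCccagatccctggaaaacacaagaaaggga
Cxcl10: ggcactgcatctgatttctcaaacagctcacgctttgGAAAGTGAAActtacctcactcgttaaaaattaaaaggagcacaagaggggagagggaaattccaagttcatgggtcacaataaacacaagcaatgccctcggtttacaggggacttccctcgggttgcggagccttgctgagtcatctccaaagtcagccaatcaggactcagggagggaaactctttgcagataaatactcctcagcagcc
Oas1a and Gbp3 each held 2 overlapping matches, on the other strand in Gbp3, and Cxcl10 held 1. Oas1a and Gbp3 were called members with a small p, and Cxcl10 was called against TSH glands, as given below. Only windows that held a match were printed, so a match in these 3 genes was fixed by the choice. A match was found in 11 of the 17 list members with a promoter sequence (64.7%), against 423 of 12849 genes in all (3.29%). Of the 3 genes, Oas1a and Gbp3 rose, and Cxcl10 was not called over Empty (log2 fold change 0.31 ± 0.21 SE, edgeR adjusted p = 0.363).

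Lysosomal genes rose, among them the proteases that cut thyroglobulin. Of 24 tested, 12 were called higher and none lower, at a median of 0.41, against 8.77% and 5.97% of all tested genes. Ctsl, cathepsin L, stood at 1168, 1140 and 1078 CPM in TSH-MMI glands, at 685, 613 and 650 CPM in Empty-MMI glands and at 556, 457 and 478 CPM in Empty glands. It rose by 1.18 ± 0.10 SE over Empty (edgeR adjusted p = 1.75e-05) and by 0.80 over Empty-MMI, again with no overlap. Ctsb, cathepsin B, rose by 0.66 and Hexa, a hexosaminidase chain, by 0.72, and Ctss rose by 1.15. Against Empty-MMI 5 of the 24 were called, and with the muscle covariate 4. Macrophages hold lysosomal genes too, and the macrophage markers above, whose summed level was between 663 and 844 CPM in TSH-MMI glands and between 351 and 420 CPM in Empty glands, moved with this list. Their part in it was not tested.

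Of 23 antioxidant genes, 9 rose and 3 fell, against 8.77% and 5.97% of all tested genes, at a median of 0.21. Nqo1, a quinone reductase under NRF2, had 36.1, 45.6 and 27 CPM in TSH-MMI glands and 15.1, 12.1 and 11.8 CPM in Empty glands (log2 fold change 1.48 ± 0.18 SE, edgeR adjusted p = 0.000201). Srxn1, sulfiredoxin, rose by 1.43 and Gclm, a subunit of the enzyme that starts glutathione synthesis, by 0.83. Gsta4, a glutathione transferase, went the other way, with 19.9, 20 and 18.2 CPM in TSH-MMI glands and 36.6, 33.2 and 31.7 CPM in Empty glands (-0.80 ± 0.10 SE). Nqo1, Gclm and Gsta4 were also called against Empty-MMI in the same directions, and Srxn1 was not (0.39). With the muscle covariate 4 were called higher and 2 lower.

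Of 31 ligands, receptors and binding proteins of the EGF, IGF and TGF-beta families, 9 rose and 1 fell, at a median of 0.24. Over all tested genes, 8.77% were called higher and 5.97% lower. Ereg, epiregulin, an EGF receptor ligand, had 1.1, 1.16 and 0.936 CPM in TSH-MMI glands and 0.142, 0.184 and 0.298 CPM in Empty glands (log2 fold change 2.36 ± 0.40 SE, edgeR adjusted p = 0.0017). Igfbp7 rose by 0.82 and Ltbp2, a latent TGF-beta binding protein, by 0.68, while Igfbp5 fell by 0.76. Ereg, Igfbp7 and Ltbp2 rose against Empty-MMI as well, by 2.03, 0.70 and 0.66, and Igfbp5 was not called there (-0.18). 3 were called higher with the muscle covariate.

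Of 20 genes of the p53 and DNA damage list, 8 rose and 2 fell, against 8.77% and 5.97% of all tested genes. The median was 0.32, and Gdf15 had the largest change. Trp53inp1, a p53-induced nuclear protein, rose by 0.96 ± 0.20 SE, while Gadd45a, a stress sensor of the growth arrest family, fell by 0.62 on the log2 scale. The count of higher members was 2 without TSH-MMI library 1 or Empty library 3, 4 without Empty library 2, and 5 without TSH-MMI library 2 or 3, and there was 1 lower member without TSH-MMI library 1. Against Empty-MMI 2 of the 20 were called, both higher, at a median of 0.33. With the muscle covariate only Gdf15 was called.

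In the list of ATF4 targets and the integrated stress response, 2 of 19 rose and 4 fell, at a median of -0.15. Over all tested genes, 8.77% were called higher and 5.97% lower. Against Empty-MMI 2 of the 19 were called higher and 1 lower, beside 3.03% and 1.21% of all tested genes. Chac1, which breaks down glutathione, fell most, with 0.282, 0.17 and 0.488 CPM in TSH-MMI glands and 3.41, 2.62 and 2.56 CPM in Empty glands (log2 fold change -3.14 ± 0.40 SE, edgeR adjusted p = 0.000248). Empty-MMI glands had 0.323, 0.269 and 0.682 CPM, and the difference between TSH-MMI and Empty-MMI was not called (-0.39, adjusted p = 0.71). Atf3, a stress-induced factor, rose by 1.45 over Empty and by 1.93 over Empty-MMI. Phgdh, the first enzyme of serine synthesis, fell by 0.80. Without TSH-MMI library 1 there were 2 higher and 1 lower members, and with the muscle covariate Chac1 alone was called.

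In the 5 lists of metabolism and signalling that follow, no call held with the muscle covariate. The shares of all tested genes to set beside their counts are 8.77% higher and 5.97% lower over Empty, and 3.03% higher and 1.21% lower over Empty-MMI. Of 20 genes of sterol and fatty acid synthesis, 7 rose and 1 fell, among them the cholesterol synthesis gene Cyp51 (0.73). Its higher members numbered 1 without TSH-MMI library 1 or 2, 2 without Empty library 1 and 3 without Empty library 3, and 2 of the 20 were called higher over Empty-MMI, at a median of 0.17. Of 25 genes of the cAMP pathway and its response, 3 rose and 1 fell, close to those shares, at a median of 0.04, with the cAMP response gene Crem at 0.62 and Rasd1 at -1.01. Its higher members numbered 0 without TSH-MMI library 1 and 1 without TSH-MMI library 2, TSH-MMI library 3, Empty library 1 or Empty library 2, and its lower members 3 without Empty library 1 or Empty library 3 and 2 without TSH-MMI library 2. Against Empty-MMI 1 was called higher, at a median of -0.01. Of 23 ER chaperones and unfolded protein response genes, 1 was called, Sec61b, a chain of the ER translocon, at -0.44, again close to the share over all genes, and none was called against Empty-MMI, at a median of -0.22. Of 28 nuclear genes of the respiratory chain, 4 fell and none rose, at a median of -0.26. The share of mitochondrial reads given above was also lower, and its part in this list was not tested. Of 20 genes of glycolysis and hypoxia, 3 rose and 4 fell, with the aldolase gene Aldoa, abundant in muscle, at -1.07 and the hexokinase gene Hk1 at 0.49. Without Empty library 2, 8 of these 20 were lower, and without TSH-MMI library 3 or Empty library 1 there were 2. The respiratory chain count was 0 without TSH-MMI library 1, TSH-MMI library 3 or Empty library 1, and 9 without Empty library 3. Against Empty-MMI neither the respiratory chain list (median -0.07) nor the glycolysis list (median 0.02) had a called member.

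Of 14 circadian genes, 1 rose and 4 fell, against 8.77% and 5.97% of all tested genes, at a median of -0.32. Hlf, a clock-controlled transcription factor, had 3.92, 4.11 and 7.41 CPM in TSH-MMI glands, 4.39, 4.99 and 4.97 CPM in TSH glands, 11.7, 15.3 and 15.6 CPM in Empty-MMI glands and 15.1, 11.2 and 18 CPM in Empty glands. All 6 libraries with the TSH plasmids lay below all 6 without them (log2 fold change over Empty -1.51 ± 0.23 SE, edgeR adjusted p = 0.00102, and -1.45 over Empty-MMI). Cry1, a repressor of the clock, fell by 0.98 over Empty and by 0.96 over Empty-MMI. Nr1d1, a nuclear receptor of the clock, was at 1.56 ± 0.40 SE over Empty and shares its locus with Thra, as given above. Its call was lost without any 1 of 5 of the 6 libraries, the exception being Empty library 2. The hour at which glands were taken is not given in the sources used here, and with the muscle covariate none of the 14 was called.

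C cell markers fell against both control groups. Of 12 tested markers of these calcitonin-producing neighbours of the follicles, 9 were called lower over Empty, at a median of -1.0, and 8 over Empty-MMI, at a median of -0.79, against 5.97% and 1.21% of all tested genes. Pcsk2, a prohormone convertase, stood at 71.9, 79.5 and 68.9 CPM in TSH-MMI glands, at 72.8, 80.4 and 59.8 CPM in TSH glands, at 130, 142 and 138 CPM in Empty-MMI glands and at 165, 136 and 173 CPM in Empty glands. The TSH-MMI libraries lay below all 6 libraries without the TSH plasmids (log2 fold change over Empty -1.11 ± 0.12 SE, edgeR adjusted p = 8.88e-05).

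The granule proteins Scg3 and Scg2 fell by 1.25 and 0.96 over Empty on the log2 scale, and the exocytosis gene Snap25 by 1.19, and all 3 also fell against Empty-MMI. Calca, the gene of calcitonin itself, had 418, 445 and 337 CPM in TSH-MMI glands and 769, 635 and 571 CPM in Empty glands (-0.72 ± 0.19 SE, adjusted p = 0.0249), and its -0.61 over Empty-MMI was not called. The Calca call over Empty was lost without TSH-MMI library 1, TSH-MMI library 3, Empty library 1 or Empty library 2. With the muscle covariate 6 of the 12 were called, at a median of -0.93. Chga, which parathyroid cells share, was not called, and parathyroid markers varied widely within groups: Pth, parathyroid hormone, stood at 1754, 1215 and 2206 CPM in TSH-MMI glands and at 3946, 6095 and 52.5 CPM in Empty glands.

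Of other cell types, cartilage markers were mixed, with 4 of 7 higher and 2 lower over Empty, against 8.77% and 5.97% of all tested genes. Over Empty-MMI 2 were higher and 1 lower, against 3.03% and 1.21%, and with the muscle covariate 2 were higher and none lower. Cnmd, chondromodulin, had 19.3, 17.1 and 18.4 CPM in TSH-MMI glands and 4.59, 3.34 and 5.12 CPM in Empty glands (log2 fold change 2.07 ± 0.27 SE, edgeR adjusted p = 0.000402). Comp, a matrix protein of cartilage, also rose by 2.07, and both rose against Empty-MMI. The collagen gene Col9a1 fell by 2.05 over Empty and by 2.16 over Empty-MMI, but its -1.92 with the muscle covariate was not called (edgeR adjusted p = 0.0731).

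Adipocyte markers lay below 0 in all 12 tested, whereas 46.33% of all tested genes lay above 0. Their median was -0.73, and 3 were called lower, against 5.97% of all tested genes. The largest was Adipoq, adiponectin, at 30.3, 46.9 and 38.4 CPM in TSH-MMI glands and 113, 86.6 and 61.5 CPM in Empty glands (-1.18 ± 0.22 SE, edgeR adjusted p = 0.00438). None was called against Empty-MMI or with the muscle covariate, and 5 were called without Empty library 3. Of 12 follicular cell markers, 4 rose and none fell over Empty, beside 8.77% and 5.97% of all tested genes. None was called over Empty-MMI or with the muscle covariate, where 3.03% and 1.68% of all tested genes were higher. 1 was called higher without TSH-MMI library 1, TSH-MMI library 2 or Empty library 1, the last with 1 lower as well.

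In the smaller lists few members were called, and the shares over all tested genes were 8.77% higher and 5.97% lower. Of 10 smooth muscle and pericyte markers 2 rose and 2 fell, and with the muscle covariate 2 were higher and none lower. The lower ones were Kcnj8, at -0.71, and Des, at -4.85. Des had 10.8, 14.2 and 25.9 CPM in TSH-MMI glands and 1112, 120 and 242 CPM in Empty glands. Its 0.10 over Empty-MMI was not called (edgeR adjusted p = 0.968), and the part of the muscle transcripts in its decrease was not tested. The lower calls were lost without TSH-MMI library 1 or TSH-MMI library 2, and over Empty-MMI 1 marker was called, higher. Of 15 tight junction genes 2 fell, 1 was called lower over Empty-MMI and none with the muscle covariate. Of 9 airway, gut and salivary markers 2 rose and 1 fell, 1 was called higher over Empty-MMI and none with the muscle covariate, and without Empty library 2 there were 4 higher and none lower. Of 8 nerve markers 1 rose, and none was called over Empty-MMI or with the muscle covariate. The 1 tested member of 7 immature thymocyte markers fell by 0.69 on the log2 scale over Empty and was not called over Empty-MMI, and none of 4 parathyroid markers was called.

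Most of the largest decreases were in genes of striated muscle. Outside the marker list, the 8 lowest among called genes with a mean of at least 5 CPM and no overlap were Sln, Myh8, H19, Nrap, Klhl41, Mb, Fitm1 and Mylk2, between -9.18 and -5.59, with adjusted p between 0.0145 and 0.049. They include a myosin heavy chain (Myh8), myoglobin (Mb) and sarcolipin (Sln), and none was called against Empty-MMI. Empty library 1 held by far the most of several: H19 stood at 0.423, 1.36 and 3.26 CPM in TSH-MMI glands and at 929, 26.4 and 18.3 CPM in Empty glands, and Sln at 0, 0 and 0.122 CPM in TSH-MMI glands and at 88.1, 2.40 and 0.348 CPM in Empty glands. Without Empty library 1 the log2 fold changes of the 8 lay between -5.50 for Nrap and -3.69 for H19, with -4.77 for Sln, and Fitm1 was the 1 still called (edgeR adjusted p = 0.0393). None of the 8 was called with the muscle covariate, with values from -4.23 for H19 to -0.02 for Nrap. Among genes whose TSH-MMI libraries also lay below every Empty-MMI library, Scn4a, the sodium channel of muscle, had 3.19, 3.63 and 5.21 CPM in TSH-MMI glands, 5.64, 10.1 and 6.66 CPM in Empty-MMI glands and 31.6, 19.7 and 37.4 CPM in Empty glands (-2.87 ± 0.35 SE). Its -0.89 over Empty-MMI was not called (edgeR adjusted p = 0.192). Kcnj11, a subunit of the ATP-sensitive potassium channel, fell by 2.67 over Empty and by 1.10 over Empty-MMI, and with Scn4a and Speg it kept its call over Empty with the muscle covariate. Of the 8 lowest genes chosen under this condition, only Kcnj11 was called over Empty-MMI.

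Few genes separated TSH-MMI from TSH glands, which had the same plasmids without the drug. Between TSH-MMI and TSH glands 3 of 17355 genes (0.0173%) were called by edgeR, 2 higher (0.0115%) and 1 lower (0.00576%), with 1438 at an unadjusted p under 0.05, and DESeq2 called 82. These 3 genes were chosen after their values were seen. Cxcl10 had 7.62, 7.11 and 5.11 CPM in TSH-MMI glands and 15.4, 23.1 and 17.9 CPM in TSH glands, without overlap (log2 fold change -1.51 ± 0.20 SE, edgeR adjusted p = 0.0308). Lrrc26, an auxiliary subunit of potassium channels, was higher in TSH-MMI than in TSH glands by 1.18 ± 0.17 SE, and the uncharacterised locus LOC115488503 by 1.44 ± 0.18 SE. None of the 3 kept its call in all alternatives: without TSH-MMI library 1 or any TSH library edgeR called no gene (between 696 and 1204 at an unadjusted p under 0.05), without TSH-MMI library 2 there was 1, and without TSH-MMI library 3 there were 43.

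TSH-MMI and Empty glands had also been sampled at 1 week, with 3 libraries in each group. The change between TSH-MMI and Empty differed between the times for 3 of 17715 genes (0.0169%) in a fit of all 21 libraries, 1 with a positive difference (0.00564%) and 2 with a negative one (0.0113%), with 1574 at an unadjusted p under 0.05, and DESeq2 found 103. Scaled over all 21 libraries, Eln had 53.3, 53.2 and 49.7 CPM in TSH-MMI glands and 32.2, 25.0 and 27.2 CPM in Empty glands at 4 weeks, and 143, 129 and 143 CPM in TSH-MMI glands and 38.2, 32.9 and 38.8 CPM in Empty glands at 1 week. Its log2 fold change was 0.89 at 4 weeks and 1.92 at 1 week, a difference of -1.03 ± 0.13 SE (edgeR adjusted p = 0.00169). For Slc26a4 the difference was -0.10 (adjusted p = 0.981), for Tshr -0.52 (adjusted p = 0.528) and for Kif20a -0.97 (adjusted p = 0.361). Also uncalled were Lox (-0.78, adjusted p = 0.127), Col3a1 (-0.57, adjusted p = 0.373), Slc5a5 (-0.88, adjusted p = 0.492), Calca (-0.53, adjusted p = 0.634) and Tg (0.38, adjusted p = 0.675).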

How the data were processed

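RNA of 12 thyroid libraries of 4 weeks and 9 of 1 week was sequenced with a stranded poly(A) kit, per the labels' protocols. The genome build mm10 and the tools StringTie 2.1.3b, HISAT2 2.1.0, Trimmomatic 0.38 and FastQC 0.11.7 come from the submitters' processing notes. The sources used here do not give tool settings, the annotation or the use of strand in counting. The deposited tables hold read counts and FPKM values per gene, per the file headers, and their 21 TPM columns were not used.

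Counts were filtered with filterByExpr, scaled by the trimmed mean of M values (factors 0.935 to 1.1) and tested with edgeR 4.0.16 (R 4.3.3) by a robust quasi-likelihood F test over all 12 libraries of 4 weeks (biological coefficient of variation 0.184) and p-values were adjusted by the Benjamini-Hochberg method and called under 0.05. A fit of all 21 libraries gave the difference between the times. On simulated data for the main comparison, with 17023 genes, 67 were changed 1.5-fold, 67 by 2-fold and 66 by 4-fold. Of these, edgeR called 32.84%, 56.72% and 87.88%, with 5.6% of its calls false. DESeq2 1.42.0 called 53.73%, 64.18% and 90.91% of the same genes, with 17.26% of its calls false.

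Alternatives were DESeq2, limma 3.58.1 on log2(FPKM + 1), RLE size factors, no filter, a fit of the compared groups alone, the replicate number as a block, scaling without abundant genes, the skeletal muscle score as covariate, and leaving out each library. Named genes were the thyroid lists, the 8 largest changes each way with a mean of at least 5 CPM and no overlap with Empty (and again with Empty-MMI), and up to 4 members of each list with the smallest p. The 34 lists hold 578 symbols, of which 575 are in the tables. Members and lists were chosen with earlier results of these data known, and some thyroid genes are left out of the text. Positions and promoters are from RefSeq (GRCm38.p6). Replicate libraries of a group differed beyond sampling noise, so each counted as 1 sample.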

Additional observations from a re-analysis of the deposited data

Results flagged for a closer look

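The effect of TSH with methimazole differed between 4 weeks and 1 week for 3 genes, by the interaction test in the fit of all 21 libraries, over which the CPM here are scaled. For Eln the difference of the log2 fold changes, 4 weeks minus 1 week, was -1.03 (SE 0.13, edgeR adjusted p = 0.00169). Agr2, a disulfide isomerase of secretory epithelia, had 4.42, 4.39 and 4.22 CPM in TSH-MMI glands and 14.5, 20.1 and 16.0 CPM in Empty glands at 4 weeks, and 10.1, 11.4 and 10.4 CPM in TSH-MMI glands and 18.5, 16.0 and 12.3 CPM in Empty glands at 1 week. Its difference was -1.41 (SE 0.23, edgeR adjusted p = 0.0283). Esm1 had 104, 108 and 108 CPM in TSH-MMI glands and 58.1, 53.9 and 56.9 CPM in Empty glands at 4 weeks, against 64.7, 59.9 and 66.7 CPM in TSH-MMI glands and 60.9, 82.0 and 52.2 CPM in Empty glands at 1 week. Its difference was 0.95 (SE 0.15, edgeR adjusted p = 0.0283). None of the 3 kept its call in every alternative. Agr2 was chosen after its values were seen.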

How the results depend on the processing

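For TSH-MMI against Empty, 2558 genes were called, and leaving out 1 library gave between 1415 and 2373. The muscle covariate gave 378, and the total under the other alternatives stayed within 1.5 times. Lower genes numbered 1036 as reported and 598 with the compared groups alone, where 576 of the 1036 kept their call. Of 106 named genes with a call, 54 kept it in all alternatives, 85 in all but the muscle covariate and 88 when each library was left out, and none reversed. For TSH-MMI against Empty-MMI, with 736 called, DESeq2 gave 1220 and leaving out 1 library between 255 and 625, and 18 of 23 named genes kept their call throughout. For TSH-MMI against TSH, with 3 called, DESeq2 gave 82, limma 9, the compared groups alone 0, the muscle covariate 0 and leaving out 1 library between 0 and 43. For the difference between the times, with 3 called, DESeq2 gave 103, limma 38, the compared groups alone 1, the muscle covariate 1 and leaving out 1 library between 1 and 16. The cause of these shifts was not tested.

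Uncalled values that changed sign were those of Slc5a5 (-0.03 as reported), at 0.06 in limma, 0.0034 with the replicate number as a block, 0.0333 with the muscle covariate and between -0.23 and 0.36 without 1 library, and of Tg (-0.12), at 0.11 with the muscle covariate and between -0.29 and 0.068 without 1 library. The Slc26a4 difference between the times (-0.10) ran between -0.41 and 0.34 without 1 library. Libraries that share a replicate number had deviations from their group means that correlated at between -0.25 and 0.26, so the numbers were not taken as pairs. With the replicate block 2401 genes were called against Empty, 630 against Empty-MMI, 3 against TSH and 2 for the difference between the times.

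With 3 libraries a group, many small changes may be missed: in simulated data edgeR recovered 32.84% of genes changed 1.5-fold. That simulation changed a far smaller share of genes than was called in the data and held no muscle difference between groups. Its rates may therefore not carry over. The summed muscle level was higher in each Empty library than in the other libraries of 4 weeks, so muscle and group cannot be fully told apart against Empty. The 3 libraries of a group may be technical.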
